A study of Mus musculus with 9 samples.

Results

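The 10 genes described here encode subunits of the AMPA and NMDA glutamate receptors of cerebral cortex: Gria1, Gria2, Gria3, Gria4, Grin1, Grin2a, Grin2b, Grin2c, Grin2d and Grin3a. They were chosen by gene symbol, because these receptors take part in excitotoxicity during ischemia, and each symbol matched 1 of the 54532 genes in the deposited expression table. Grin3b, the remaining NMDA subunit gene, was not in the chosen set and is given separately. Cortex RNA was sequenced from 3 adult male mice of each of 3 inbred strains, aged 8 to 12 weeks. The mouse reference genome was made from B6 (C57BL6/J). C3H (C3H/HeJ) is a classical laboratory strain as well, whereas WSB (WSB/EiJ) was derived from wild mice. The labels name no treatment, surgery or engineered allele in any of the 9 mice, so the comparison is between the strains in the uninjured state. The study from which these data come sought genes by which the strains differ in infarct volume after occlusion of a cerebral artery.

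Glutamate is the main excitatory transmitter of the cortex. AMPA receptors, assembled from the products of Gria1 to Gria4, open within a short time of glutamate binding and carry most of the fast excitatory current. NMDA receptors combine the obligatory subunit from Grin1 with subunits from the Grin2 genes, and sometimes from the Grin3 genes. They need glycine or D-serine besides glutamate, are blocked by magnesium at rest, and admit calcium once the membrane is depolarized. The choice among Grin2 genes sets how slowly an NMDA receptor closes and which scaffold and signalling proteins it binds. Grin2b predominates early in development and Grin2a rises as the cortex matures. When energy fails during ischemia, glutamate accumulates outside cells and calcium entry through these receptors injures neurons, a process called excitotoxicity.

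A total of 16317439 to 21562429 reads lay on genes in each library. The unit is FPKM, fragments per kilobase of the gene's exons scaled for library size, as the authors deposited it. Whole read numbers were recovered from the FPKM values, and each of the 10 genes had at least 227 reads in every library. All 5 markers fixed for excitatory neurons were present, summing to 1812 to 2001 FPKM in the B6 mice, 1714 to 2200 for C3H and 1623 to 2078 for WSB, and these ranges overlapped. No marker of any list was at 0 in all libraries, but the summed levels of several other lists did not overlap between strains. Blood genes reached 632 to 1010 FPKM in C3H against 217 to 254 in B6 and 249 to 329 in WSB. Oligodendrocyte genes reached 427 to 617 FPKM in WSB against 784 to 982 in B6, and hippocampal genes 67.3 to 78.3 in WSB against 36.8 to 52.5 in B6. In WSB against B6, interneuron genes were also higher (628 to 764 against 587 to 609 FPKM), and genes of oligodendrocyte precursors (46.2 to 54.7 against 60.2 to 64.1), microglia (96.5 to 97.8 against 113 to 119) and endothelium (19.9 to 26.1 against 32.7 to 36.3) lower, with no overlap. Genes of neighbouring tissue also varied between mice of a strain. In B6, C3H and WSB, choroid plexus genes spanned 64.4 to 762, 92.1 to 655 and 467 to 602 FPKM. Striatal genes spanned 100 to 402, 93.9 to 244 and 74.8 to 192, and thalamic genes 9.93 to 13.9, 11.1 to 42.2 and 13.5 to 30.9. The part of such tissue in the members' levels was not tested. Libraries also differed in how read numbers ran with the GC content of transcripts. Across 12995 genes, Spearman's correlation between GC content and a library's deviation from the mean of the 9 libraries was 0.51 and 0.53 in C3H replicates 1 and 3 but -0.18 in C3H replicate 2. It ranged from -0.47 to -0.06 in B6 and from -0.37 to 0.06 in WSB. C3H replicate 2 therefore stands apart from the other C3H mice, but its value lies inside the B6 and WSB ranges, whereas C3H replicates 1 and 3 lie outside both. The members' differences without C3H replicate 2 are given after those with it.

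The 10 genes descend from a shared ancestral receptor, and a stretch of the transmembrane segment that lines the pore is kept in all of them. The 21 bases coding for 7 residues of this segment were taken from the longest coding transcript of each gene (GENCODE M21, GRCm38, the B6 reference). They are shown to let the members be compared at a place where all encode the same residues, and capitals mark bases unlike those of Grin2b.
Grin2b: tacactgccaacttagccgcc
Grin2a: tacacAgccaacCtGgcTgcc
Grin2c: tacacGgccaaTCtGgcAgcc
Grin2d: taTacAgccaaTCtGgcTgcc
Grin1: tacactgccaacCtGgcAgcc
Grin3a: tacacAgcGaacttGgcTgcT
Gria1: tacacAgccaacCtGgcTgcc
Gria2: tacacGgcTaacttagcTgcc
Gria3: tacactgcAaacCtTgcTgcT
Gria4: tacactgcTaaTCtGgcTgcA
Between 3 and 6 of the 21 bases differed from Grin2b, and Gria1 and Grin2a had the same 21 bases although they belong to different receptor classes. The stretch lies within a single exon of every gene: at chr6:135772247-135772267 in exon 10 of 14 of Grin2b, chr16:9653450-9653470 in exon 10 of 14 of Grin2a, chr11:115253752-115253772 in exon 11 of 15 of Grin2c and chr7:45854282-45854302 in exon 8 of 12 of Grin2d. In Grin1 it lies at chr2:25297202-25297222 in exon 15 of 21, and in Grin3a at chr4:49770473-49770493 in exon 3 of 9. In the AMPA genes it lies at chr11:57283574-57283594 in exon 12 of 16 of Gria1, chr3:80702572-80702592 in exon 12 of 16 of Gria2, chrX:41620861-41620881 in exon 12 of 16 of Gria3 and chr9:4462020-4462040 in exon 13 of 17 of Gria4. Gria1 and Gria3 are on the plus strand and the other 8 genes on the minus strand. Likeness of this kind can split reads between genes, so all 45 pairs of members were searched for shared stretches of 50 bases. Only the pairs among Gria2, Gria3 and Gria4 shared any, the longest being 59 bases, shorter than a read of 150 bases.

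A codon in the pore loop of the AMPA genes, the Q/R site, decides calcium entry. In Gria2 the genomic codon for glutamine is edited in RNA to one for arginine by Adarb1, an adenosine deaminase, and receptors with the edited subunit pass little calcium. The 27 bases around the codon are shown with the codon in capitals.
Gria1: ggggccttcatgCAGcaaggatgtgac
Gria2: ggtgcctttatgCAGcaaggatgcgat
Gria3: ggtgcttttatgCAGcaaggatgtgat
Gria4: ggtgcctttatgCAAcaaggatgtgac
The windows lie at chr11:57243082-57243108 in exon 11 of 16 of Gria1, chr3:80706899-80706925 in exon 11 of 16 of Gria2, chrX:41610253-41610279 in exon 11 of 16 of Gria3 and chr9:4464125-4464151 in exon 12 of 17 of Gria4, on the strands given above. All 4 genomic codons read glutamine, so the genome sequence alone does not tell the calcium-impermeable subunit apart, and a level in FPKM does not show whether a transcript was edited.

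FPKM is scaled to the length of the gene model in the table, so levels can be ordered between genes on that length. On this scale Gria1 was the most abundant member in every strain, followed by Grin1 and Gria2. The top of the order turned with the length used: per kilobase of the longest transcript, a scale added after seeing the data, mean Grin1 was 78.2 against 68.0 for Gria1 in B6, where they overlapped, 94.9 against 61.1 in C3H and 81.1 against 64.0 in WSB. Mean Gria1 was 62.4 ± 7.46 FPKM in B6, 56.0 ± 1.22 in C3H and 58.8 ± 4.47 in WSB (SD, n = 3). Grin2d and Grin3a were the lowest members in all strains, at means of 2.53 to 3.05 and 3.16 to 3.65 FPKM. Within B6 and by FPKM, the neighbours Gria3 and Grin2c overlapped in their values, as did Grin3a and Grin2d, and all other neighbours in the order were separate. The order of the subunits shifted in its middle. In B6, Grin2b at 10.1 FPKM lay above Grin2a at 7.47 with no overlap. In C3H, Grin2b at 5.94 and Grin2a at 5.28 overlapped, and in WSB they overlapped with Grin2a at 7.61 and Grin2b at 7.24.

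**Figure D1:**
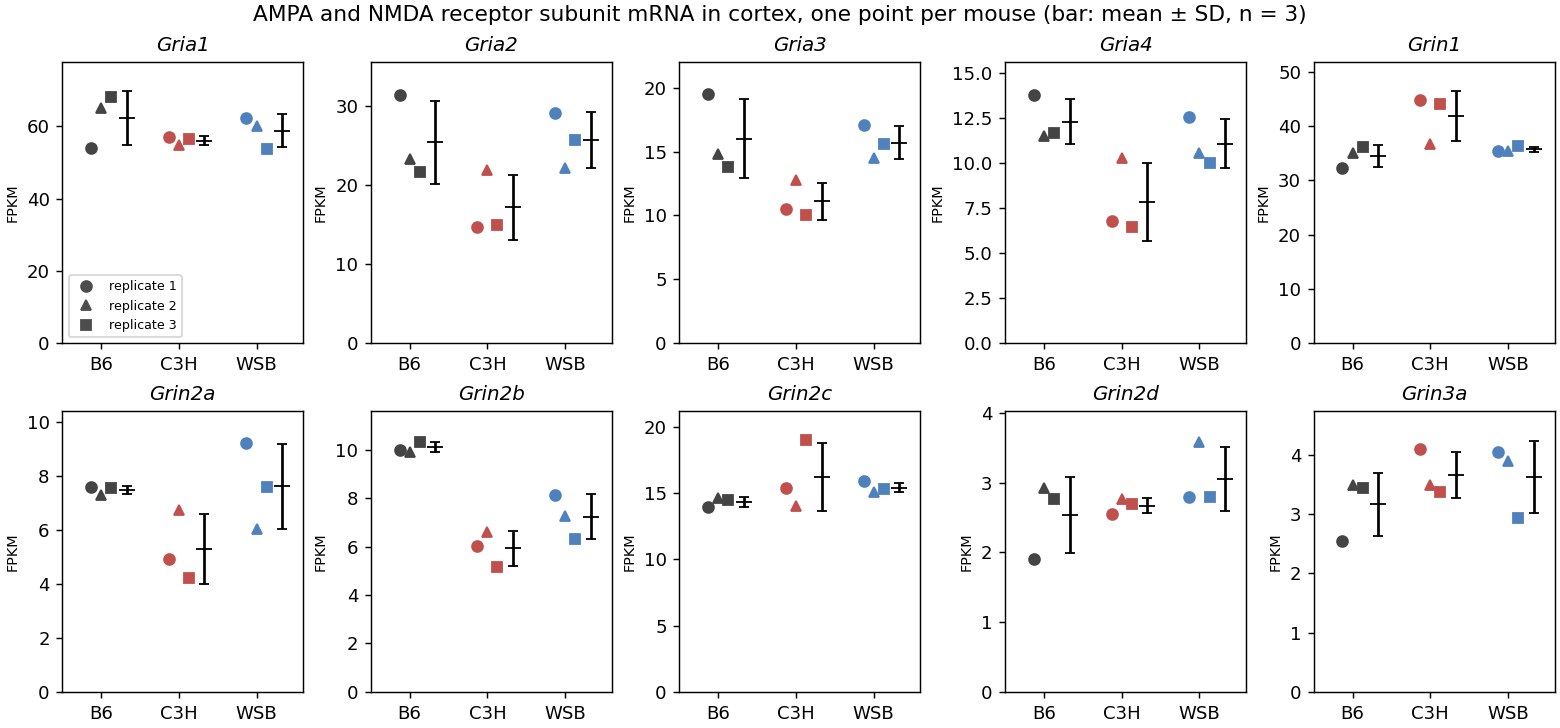
FPKM of each subunit gene (vertical axis, from 0) in the 9 cortex libraries, with 1 point per mouse, marker shape giving the replicate number and the bar beside each strain giving the mean ± SD (n = 3). The 3 B6 values of Grin2b, 9.91 to 10.3, lie above all 6 values of C3H and WSB. C3H replicate 2 lies nearer to B6 than the other C3H mice do for Gria2, Gria3, Gria4, Grin1, Grin2a, Grin2b and Grin2c.

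Strains were compared 2 at a time with limma on log2(FPKM + 0.1), and a gene was counted as changed at a Benjamini-Hochberg adjusted p under 0.05 over all genes tested. All 10 members passed the filter of a mean of 0.1 FPKM in each comparison. Between WSB and B6, 1 of the 10 members was changed, against 5.90% of all genes tested. Between C3H and B6 it was 1 of 10 against 4.64%, and between WSB and C3H 1 of 10 against 5.74%. Counts of 1 in 10 are near these shares and say nothing particular about the receptor genes as a group. The changed genes were Grin2b, lower in C3H and lower in WSB than in B6, and Gria3, higher in WSB than in C3H. The comparisons of C3H and WSB with B6 share the same B6 mice.

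The median log2 difference of the members was 0.01 between WSB and B6, -0.33 between C3H and B6 and 0.23 between WSB and C3H, against 0.00, 0.00 and 0.01 over all genes tested. The values of the strains did not overlap for 2 of 10 members between WSB and B6 (26.0% of all genes), 5 of 10 between C3H and B6 (28.9%) and 4 of 10 between WSB and C3H (28.6%).

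**Figure D2:**
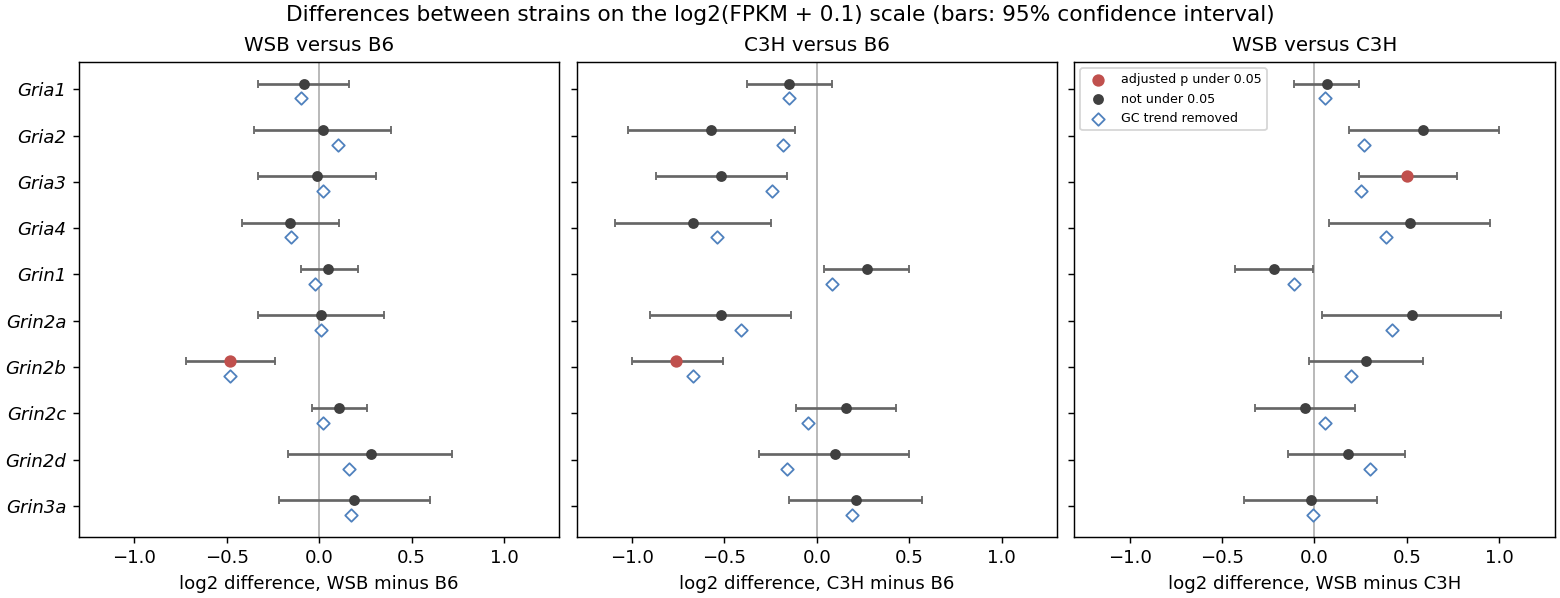
Difference between strains for each subunit gene on the log2(FPKM + 0.1) scale (horizontal axis), for WSB minus B6, C3H minus B6 and WSB minus C3H, as filled points with 95% confidence intervals, and as open diamonds after the GC trend of each library was removed. Filled red points passed the threshold: Grin2b at -0.48 and -0.76 against B6, and Gria3 at 0.50 between WSB and C3H.

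The AMPA subunits lay at log2 differences of -0.16 to 0.02 between WSB and B6 and of -0.67 to -0.15 between C3H and B6. By limma none of these passed the threshold, and an unadjusted p under 0.05 was reached by 0 of the 4 genes between WSB and B6 (20.4% of all genes) and by 3 of the 4 between C3H and B6 (24.1%). Gria1 (chr11:57011387-57330244) encodes GluA1, the subunit added to synapses during potentiation. Its values were 54.0, 65.1 and 68.1 FPKM in B6, 57, 54.7 and 56.4 in C3H and 62.4, 60.1 and 53.8 in WSB. The strains overlapped, and the difference between C3H and B6 was -0.15 (95% confidence interval -0.38 to 0.08, limma adjusted p = 0.382).

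Gria2 (chr3:80681450-80802835) encodes GluA2, the subunit that limits calcium entry when edited. It had 31.4, 23.3 and 21.6 FPKM in B6, 14.7, 21.9 and 14.9 in C3H and 29.1, 22.1 and 25.7 in WSB. C3H replicates 1 and 3 lay below every other mouse, while C3H replicate 2 fell inside the B6 range. The log2 difference between C3H and B6 was -0.57 (interval -1.02 to -0.12, limma adjusted p = 0.140) and did not pass the threshold. WSB exceeded C3H by 0.59 (interval 0.19 to 1.0) with no overlap of values but also did not pass (limma adjusted p = 0.0980).

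Gria3 (chrX:41400854-41678601), whose product GluA3 pairs mostly with GluA2, had 19.5, 14.8 and 13.8 FPKM in B6, 10.5, 12.8 and 10 in C3H and 17.1, 14.5 and 15.6 in WSB. All C3H mice lay below all mice of the other strains. Gria3 was higher in WSB than in C3H by 0.50 on the log2 scale (SE 0.11, limma adjusted p = 0.0480), a fold of 1.42. With the GC trend removed this was 0.25 (limma adjusted p = 0.0503). When 1 mouse at a time was left out, 1 of 6 fits called Gria3, the one without C3H replicate 2 (0.61, limma adjusted p = 0.0191). Over all genes, that fit called 2002 and the other such fits 475 to 715, against 1182 with all mice. The lower level in C3H than in B6 was -0.52 (interval -0.87 to -0.16, limma adjusted p = 0.103), and -0.62 without C3H replicate 2 (limma adjusted p = 0.0521).

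Gria4 (chr9:4417896-4796234) encodes GluA4, known for fast-gating receptors of interneurons. It was at 13.8, 11.5 and 11.7 FPKM in B6, 6.78, 10.3 and 6.47 in C3H and 12.6, 10.6 and 10 in WSB. Again C3H replicates 1 and 3 were the lowest mice, and C3H replicate 2 lay within the WSB range. The difference between C3H and B6 was -0.67 (interval -1.09 to -0.25, limma adjusted p = 0.0853), and it was -0.54 with the GC trend removed (limma adjusted p = 0.0586). Between WSB and C3H it was 0.52 (limma adjusted p = 0.155).

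Grin1 (chr2:25291181-25319187) encodes GluN1, the glycine-binding subunit without which no NMDA receptor forms. Its values were 32.2, 35.1 and 36.1 FPKM in B6, 44.8, 36.6 and 44.1 in C3H and 35.4, 35.4 and 36.3 in WSB. B6 and WSB overlapped, with a difference of 0.05 (interval -0.10 to 0.21), while every C3H mouse was above them. The C3H difference from B6 was 0.27 (interval 0.04 to 0.50) and did not pass (limma adjusted p = 0.154), and it was 0.08 with the GC trend removed. An antisense gene, Grin1os, overlaps Grin1 and had 174 to 247 reads against at least 5593 for Grin1. Whether the counting used strand is not given in the sources used here.

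Grin2b (ENSMUSG00000030209, chr6:135713233-136173511, minus strand) encodes GluN2B, the subunit of slowly closing NMDA receptors that also binds CaMKII. It was the member with the clearest difference between strains. The 3 B6 mice had 9.99, 9.91 and 10.3 FPKM, the C3H mice 6.04, 6.60 and 5.17, and the WSB mice 8.14, 7.27 and 6.30. Every C3H and every WSB mouse lay below every B6 mouse, and the B6 values spanned a narrow range (10.1 ± 0.198 FPKM, SD, n = 3). These levels rest on 4444 to 5447 reads in the B6 mice, 2492 to 3176 for C3H and 2858 to 3363 for WSB, so counting error is small beside these gaps. The level in C3H was 0.591 of that in B6, a log2 difference of -0.76 (SE 0.11, interval -1.0 to -0.51, limma adjusted p = 0.00750). This difference was as marked without C3H replicate 2 (-0.84, limma adjusted p = 0.00838), stayed at -0.67 with the GC trend removed (limma adjusted p = 0.00417), and passed in all 6 fits made with 1 mouse left out, at -0.84 to -0.66.

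In WSB, Grin2b was at 0.718 of the B6 level, a log2 difference of -0.48 (SE 0.10, interval -0.72 to -0.24, limma adjusted p = 0.0414). The difference was -0.48 with the GC trend removed as well (limma adjusted p = 0.0282). When 1 mouse at a time was left out, 1 of the 6 fits called it, the one without WSB replicate 1 (-0.57, limma adjusted p = 0.0345). Leaving out any B6 mouse, WSB replicate 2 or WSB replicate 3 gave -0.49 to -0.38 and an adjusted p by limma of 0.0863 to 0.129. Over all genes, 651 to 825 were called with 1 mouse left out, against 1224 with all mice. WSB and C3H overlapped in Grin2b, and their difference of 0.28 (interval -0.03 to 0.59, limma adjusted p = 0.245) did not pass. In bulk tissue, fewer cells that express a gene and less RNA per cell cannot be told apart. Reads of every strain were counted on gene coordinates of the B6 reference, and the effect of this on the Grin2b difference was not tested. Beside the lower Grin2b, the marker sums given above for blood in C3H, and for oligodendrocytes and their precursors, microglia, endothelium, interneurons and hippocampus in WSB, also differed from B6, and their part in the result was not tested. The antisense genes Gm14330 and Gm26653, which overlap Grin2b, had at most 16 and 28 reads in any library.

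Grin2a (chr16:9567898-9995560) encodes GluN2A, and its level rises as the cortex matures. It was at 7.57, 7.28 and 7.54 FPKM in B6, 4.91, 6.73 and 4.21 in C3H and 9.20, 6.04 and 7.58 in WSB. The B6 mice were close together and all above the C3H mice, whereas the WSB mice spread to both sides of B6. The difference between C3H and B6 was -0.52 (interval -0.90 to -0.14, limma adjusted p = 0.121) and -0.41 with the GC trend removed. Between WSB and B6 it was 0.01 (interval -0.33 to 0.35).

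Grin2c (chr11:115249169-115267243) encodes GluN2C, a subunit with weaker magnesium block best known from cerebellar granule cells and astrocytes. It had 13.9, 14.6 and 14.5 FPKM in B6, 15.4, 14.0 and 19.0 in C3H and 15.9, 15.1 and 15.3 in WSB. Its mean was the highest of the Grin2 genes in every strain, by FPKM and per kilobase of the longest transcript. WSB lay just above B6 in every mouse, by 0.11 (interval -0.04 to 0.26, limma adjusted p = 0.412), and C3H overlapped both. Of the 5 cerebellar markers listed, 4 averaged under 1 FPKM.

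Grin2d (chr7:45831883-45878378) encodes GluN2D, found mostly in interneurons of the adult forebrain. It had 1.90, 2.92 and 2.76 FPKM in B6, 2.55, 2.77 and 2.69 in C3H and 2.79, 3.58 and 2.79 in WSB. WSB mice were all above C3H mice by a small margin, at a log2 difference of 0.18 (interval -0.14 to 0.49, limma adjusted p = 0.460). This gene is the least certain of the set, since Kdelr1 on the opposite strand overlaps it and had 838 to 1174 reads against 227 to 413 for Grin2d. Grin3a (chr4:49661611-49845744) encodes GluN3A, a glycine-binding subunit that lowers calcium entry. Its values were 2.55, 3.49 and 3.44 FPKM in B6, 4.09, 3.49 and 3.36 in C3H and 4.04, 3.89 and 2.93 in WSB, and all strains overlapped. Grin3b, its close relative, had 0 to 19 reads in any library, and its strain differences of -0.20 to 0.24 had standard errors of 0.51 to 0.64.

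Between C3H and B6, the direction of the differences ran with the GC content of the members' transcripts. Gria2, Gria3, Gria4, Grin2a and Grin2b, with 36.8% to 45.7% GC in the longest transcript, were at -0.76 to -0.52, and Grin1, Grin2c and Grin2d, with 59.4% to 65.0% GC, at 0.10 to 0.27. Gria1 (48.5% GC) and Grin3a (49.2% GC) lay between in GC content, with differences of -0.15 and 0.21. Grin3a was thus above Grin2c (0.16) and Grin2d (0.10), which have more GC, and it stayed at 0.19 with the GC trend removed. When each library's trend with GC was removed, Gria2 moved from -0.57 to -0.18 and Gria3 from -0.52 to -0.24, while Grin2b moved from -0.76 to -0.67. Grin2c and Grin2d changed sign, to -0.05 and -0.16. Grin2b was then the only member called, in both comparisons with B6.

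**Figure D3:**
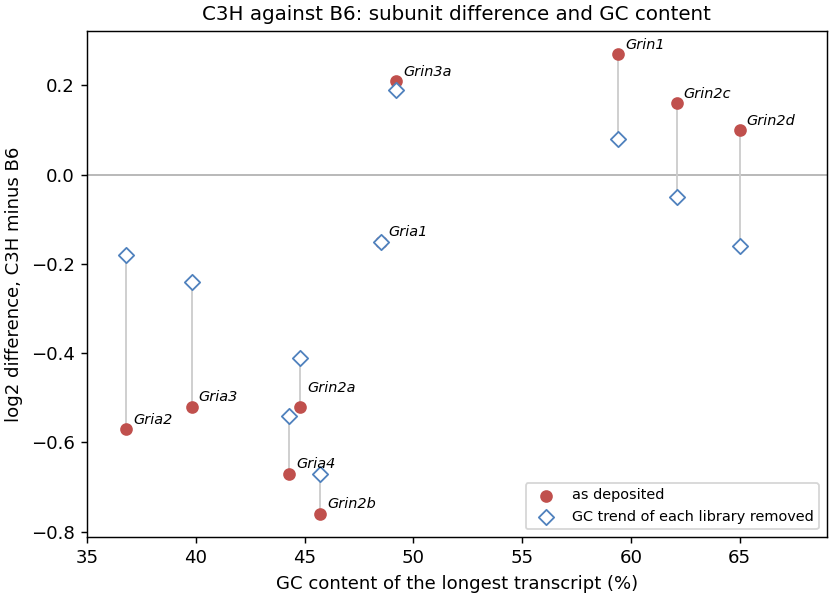
Difference between C3H and B6 on the log2(FPKM + 0.1) scale (vertical axis) against the GC content of each gene's longest transcript (horizontal axis, %), as deposited (filled) and with each library's GC trend removed (open). The filled points run from -0.57 for Gria2 at 36.8% to 0.10 for Grin2d at 65.0%, and Grin2b at 45.7% is lowest in both forms.

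C3H replicate 2, the C3H mouse without the strong GC trend, decided several calls. Both other C3H mice have that trend, so strain and GC trend cannot be told apart in fits without C3H replicate 2. Without it, 5 members passed between C3H and B6: Gria2 at -0.76, Gria4 at -0.88, Grin2a at -0.70, Grin2b at -0.84 and Grin1 at 0.37, with limma adjusted p from 0.00838 to 0.0378. In that fit 11.2% of all genes tested passed (2301 of 20562), against 956 of 20602 with this mouse. Between WSB and C3H without it, 4 members passed: Gria2 at 0.78, Gria3 at 0.61, Gria4 at 0.73 and Grin1 at -0.31, against 9.71% of all genes (2002 of 20614). The members that did not pass without it lay at -0.13 (Gria1), -0.62 (Gria3), 0.26 (Grin2c), 0.07 (Grin2d) and 0.24 (Grin3a) between C3H and B6. Between WSB and C3H they lay at 0.05 (Gria1), 0.71 (Grin2a), 0.36 (Grin2b), -0.15 (Grin2c), 0.21 (Grin2d) and -0.05 (Grin3a). Leaving out C3H replicate 1 or 3 gave 507 or 498 genes called between C3H and B6, and Grin2b was the only member among them.

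Ratios between subunits within a library do not depend on how the library was scaled, and 4 were compared over the 9 mice by an exact permutation test of the F ratio (1680 assignments, smallest possible p 0.00357), with adjustment over the 4. The ratio of Grin2a to Grin2b, which in cortex rises with maturation, was 0.758, 0.734 and 0.733 in the B6 mice, 0.812, 1.02 and 0.814 in C3H and 1.13, 0.832 and 1.20 in WSB. B6 mice were lowest and close together. Mean log2 ratios were -0.43 ± 0.03 in B6, -0.19 ± 0.19 in C3H and 0.06 ± 0.29 in WSB (SD, n = 3; exact p = 0.0393, adjusted 0.0524), which did not pass after adjustment. Any 2 strains compared exactly, 3 mice against 3, cannot reach a p below 0.1.

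The ratio of Grin1 to the summed Grin2 genes was 0.966, 1.01 and 1.03 in B6, 1.55, 1.22 and 1.42 in C3H and 0.985, 1.11 and 1.14 in WSB. Each C3H mouse exceeded every mouse of the other strains, and the log2 ratio differed between strains (0.00 ± 0.05, 0.47 ± 0.18 and 0.10 ± 0.11 in B6, C3H and WSB; SD, n = 3; exact p = 0.0107, adjusted 0.0214). With the GC trend removed the adjusted exact p was 0.0429. The summed AMPA to summed NMDA ratio was 1.74, 1.56 and 1.54 in B6, 1.14, 1.42 and 1.12 in C3H and 1.61, 1.5 and 1.48 in WSB. It was lowest in the C3H mice (log2 means 0.69 ± 0.10, 0.29 ± 0.19 and 0.61 ± 0.06; SD, n = 3; exact p = 0.0107, adjusted 0.0214), but with the GC trend removed the adjusted exact p was 0.0524. Without C3H replicate 2 the adjusted exact p was 0.0214 for both of these ratios, with C3H log2 means of 0.57 and 0.18, and 0.0524 for Grin2a to Grin2b, with a C3H mean of -0.30. Leaving out any B6 or any WSB mouse raised the adjusted exact p of Grin1 to summed Grin2 and of summed AMPA to summed NMDA to between 0.0714 and 0.114. The level of the ratios depends on the gene lengths used. With the longest transcript of each gene, the log2 means of Grin1 to summed Grin2 were 1.06, 1.54 and 1.16 in B6, C3H and WSB, and those of summed AMPA to summed NMDA were 0.32, -0.19 and 0.23, so the sign of the latter turned in C3H. The adjusted exact p was then 0.0357 for both. Gria2 made up 21.8 ± 4.08% of the summed AMPA subunit FPKM in B6, 18.5 ± 3.03% in C3H and 23.0 ± 2.10% in WSB (SD, n = 3; exact p = 0.279, adjusted 0.279), and these shares overlapped.

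**Figure D4:**
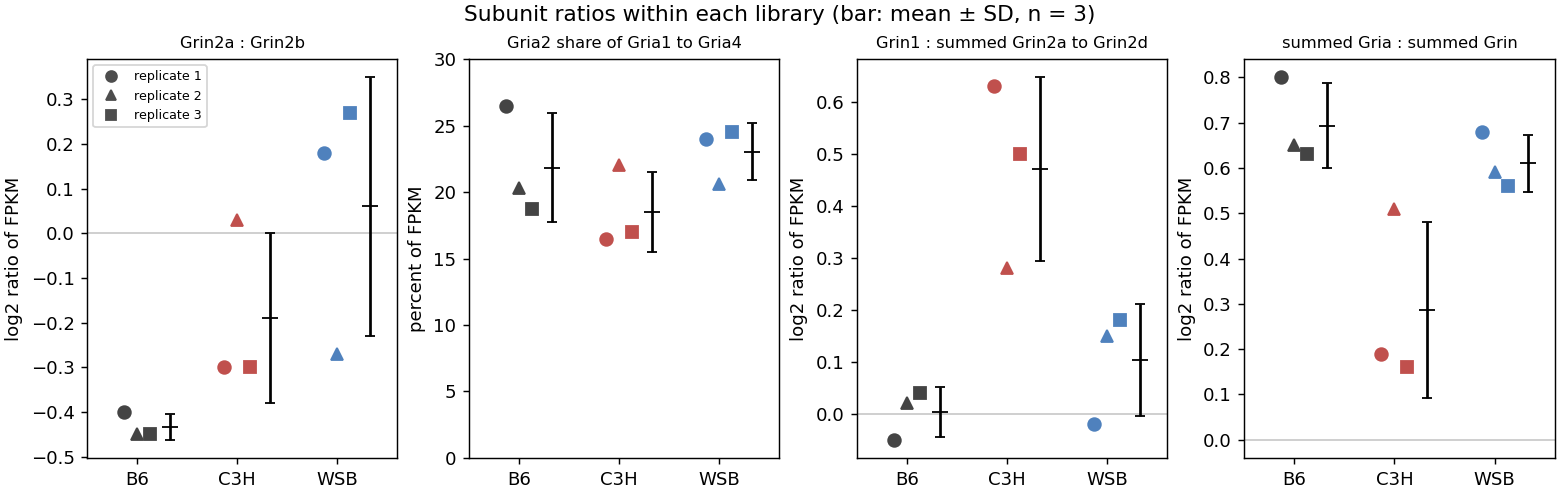
Subunit ratios in each of the 9 libraries, with 1 point per mouse and the mean ± SD (n = 3) of each strain beside the points: the log2 ratio of Grin2a to Grin2b, the Gria2 percent of summed AMPA subunit FPKM, and the log2 ratios of Grin1 to the summed Grin2 genes and of summed AMPA to summed NMDA genes. The 3 B6 mice lie at -0.45 to -0.40 for Grin2a to Grin2b, and the 3 C3H mice at 0.28 to 0.63 for Grin1 to summed Grin2, above all others.

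A list of 48 related genes was read in the same fits, of which 47 could be tested (Grm6, a metabotropic receptor of the retina, was listed at 0 in all libraries). Between WSB and B6, 2 of the 47 were changed, near the share of 5.90% over all genes tested. Gsg1l, an auxiliary AMPA subunit that slows recovery from desensitization, had 27.6, 23.9 and 22.5 FPKM in B6, 29.0, 21.8 and 28.1 in C3H and 15.8, 15.9 and 19.2 in WSB. All WSB mice lay below all others, by -0.54 from B6 (SE 0.11, limma adjusted p = 0.0323) and by -0.62 from C3H (SE 0.13, limma adjusted p = 0.0393). With 1 mouse at a time left out, 1 of 6 fits called Gsg1l in each comparison, the one without WSB replicate 3 against B6 (limma adjusted p = 0.0284) and the one without C3H replicate 2 against C3H (limma adjusted p = 0.0154), and adjusted p by limma otherwise rose as far as 0.105 and 0.150. Capn2, a calcium-activated protease, had 11.7, 11.4 and 12.4 FPKM in B6, 11.8, 12.9 and 12.9 in C3H and 15.8, 15.5 and 14.7 in WSB. The WSB mice were above all others, by 0.37 from B6 (SE 0.07, limma adjusted p = 0.0246). That call was lost in every fit with 1 mouse left out (limma adjusted p 0.0533 to 0.108). Over all genes, leaving out 1 mouse gave 651 to 825 calls between WSB and B6, against 1224 with all mice. Between WSB and C3H it gave 475 to 2002, against 1182.

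Between C3H and B6, none of the 47 was changed by limma (lowest adjusted p 0.109), against 4.64% of all genes tested. An unadjusted p under 0.05 by limma was reached by 7, against 24.1% of all genes. Voom weights called 1 of them (Grm5) and removal of the GC trend 3 (Adar, Nptx2 and Shisa7). The fit without C3H replicate 2 called 4 (Camk2b, Grik5, Grm5 and Grm7). Over all genes, those fits called 1488 of 20602, 1156 of 20579 and 2301 of 20562 in the same order. Between WSB and C3H, Gsg1l was the only one of the 47 in the fit as described, against 5.74% of all genes tested. There 9 of the 47 were at an unadjusted p under 0.05 by limma (23.8% of all genes). Grik5, a kainate subunit at -0.54 there (limma adjusted p = 0.0583), was called as well with a filter of 1 FPKM, protein-coding genes only, voom weights, 9 libraries in 1 fit, the GC trend removed and C3H replicate 2 left out. Capn2 was called with 9 libraries in 1 fit and with the GC trend removed, Grik3 with the GC trend removed, and Grm5 and Grm7 with C3H replicate 2 left out. The median log2 difference of the list was 0.02, 0.01 and 0.00 in WSB against B6, C3H against B6 and WSB against C3H. The groups are given for the fit as described, apart from the alternatives just named. None of the 7 kainate and delta receptor genes passed limma in any comparison, with C3H against B6 differences of -0.53 to 0.36. At an unadjusted p under 0.05 were 1, 2 and 3 of them in WSB against B6, C3H against B6 and WSB against C3H. Over all genes, 20.4%, 24.1% and 23.8% were at that level, and 5.90%, 4.64% and 5.74% passed after adjustment. Of the 18 AMPA auxiliary genes, Gsg1l alone passed in the fit as described. The rest of the group included the stargazin relatives and cornichons that bring AMPA receptors to the surface. In that fit none of the 7 tested metabotropic receptor genes passed limma (0, 1 and 1 unadjusted, in the same order), at -0.82 to 0.42 between C3H and B6. Of the 11 genes for NMDA receptor partners, D-serine synthesis and excitotoxic effectors, Capn2 alone passed in it. Nor did any of the 3 editing enzymes in that fit (1, 2 and 0 unadjusted), while Adar passed between C3H and B6 with the GC trend removed. Adarb1, which edits the Q/R codon of Gria2, had 19.3, 19.3 and 20.2 FPKM in B6, 21.9, 21.3 and 27.0 in C3H and 18.6, 23.1 and 18.2 in WSB. All C3H mice lay above B6, by 0.25 (interval 0.01 to 0.49, limma adjusted p = 0.192), and by 0.31 without C3H replicate 2 (limma adjusted p = 0.0983), and neither passed.

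Correlation with Grin2b over the 9 libraries was read among 12955 genes outside the member and related lists that averaged 1 FPKM or more. The closest of these were Them4 (Pearson's r 0.989), Uhmk1 (r 0.977) and Samd4 (r 0.975). These correlations describe 9 libraries that differ in strain, depth and GC trend, and the part of those differences in them was not tested. Them4 encodes a thioesterase, Uhmk1 a kinase and Samd4 an RNA-binding protein, and they lie on chromosomes 3, 1 and 14, not on chromosome 6 with Grin2b. Their means over the libraries were 4.35, 30.3 and 2.76 FPKM, against 7.75 for Grin2b.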

How the data were processed

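Cortex mRNA was read as paired ends of 150 bp. According to the study and the submitters' processing notes, the authors trimmed adapters with Cutadapt, aligned with STAR, counted on genes with HTSeq and tested with DESeq2, and they deposited FPKM values per gene and mouse. Versions and the strand setting are not given in the sources used here. FPKM multiplied by gene length gave whole multiples of 1 step for 100% of values (tolerance 0.1 read), which returned read numbers. Counting error alone is covered by those numbers. Between mice of a strain, chi-square per gene was 7.87 to 24.12, so no library was a duplicate.

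Each pair of strains was fitted with limma 3.58.1 in R 4.3.3 on log2(FPKM + 0.1), by lmFit and two-sided eBayes with a mean trend. Genes entered a fit if they averaged 0.1 FPKM or more over its 6 libraries, with Benjamini-Hochberg adjustment over all genes and a threshold of 0.05. Fold changes on this scale understate those of low genes. The fit was tested on data simulated after the WSB and B6 libraries with a dispersion shared by all genes. There 16.5% of its calls were false, more than the threshold sets, and 3.47% among genes averaging 1 FPKM or more. It found 16.9% of the smallest changes put in, 56.3% of the middle ones and 71.5% of the largest, so larger changes were missed too. Ratios were compared by exact permutation. Transcripts, GC content (longest transcript) and sequences came from GENCODE M21, read with Python 3.11.15 and Biopython 1.88, and figures from matplotlib 3.10.9.

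The members, related genes and marker lists were chosen with earlier results of these data known. Named were all members, related genes that passed, Grin3b, Adarb1, overlapping genes and, outside the lists, the 3 genes most like the member with the lowest adjusted p. Replicate numbers did not pair the mice. As alternatives, the pseudocount was 1 or 0.01 and the low-value filter was dropped or raised to 1 FPKM. Others were 2 rescalings, 9 libraries in 1 fit, eBayes without a trend, voom weights, a replicate block, protein-coding genes only, removal of GC trends, longest transcript length for ratios, and leaving out each mouse. Levels per kilobase of longest transcript were added after seeing the data.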

Additional observations from a re-analysis of the deposited data

Results flagged for a closer look

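Of the 10 receptor subunit genes and the 47 related genes tested, 2 differed between WSB and C3H by the direct test in the fit as described. Over all genes tested, 5.74% differed (1182 of 20607), and 475 to 2002 genes were called in fits without 1 mouse. The count of 2 is thus not above the share over all genes. With 1 mouse at a time left out, 1 of 6 fits called Gria3 and 1 of 6 called Gsg1l. Unequal differences from B6 were therefore called in the fit as described but not in most of those fits. Gria3 was higher in WSB than in C3H by 0.50 on the log2 scale (limma adjusted p = 0.0480), with differences from B6 of -0.01 in WSB and -0.52 in C3H. Gsg1l was lower in WSB than in C3H, at -0.62 (limma adjusted p = 0.0393), with differences from B6 of -0.54 in WSB and 0.09 in C3H. With the GC trend removed Gsg1l was at -0.52 (limma adjusted p = 0.0272) and Gria3 at 0.25 (limma adjusted p = 0.0503).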

How the results depend on the processing

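Grin2b was called in C3H against B6 under every alternative run, at -0.84 to -0.66 on the log2 scale. Over all members, 161, 169 and 159 of 180 values kept their direction and side of the threshold in WSB against B6, C3H against B6 and WSB against C3H. In WSB against B6 the 1 member called became 0 with no filter, with eBayes without a trend and with a replicate block. Leaving out 1 mouse gave 0 to 1. Over all genes, 1224 calls among 20746 became 1033 among 30141 with no filter, 946 without a trend and 754 with the block. Leaving out 1 mouse gave 651 to 825. In C3H against B6 the 1 member became 2 with 9 libraries in 1 fit and 4 with voom weights. Leaving out 1 mouse gave 1 to 5. Over all genes, 956 calls among 20602 became 1390 with 9 libraries in 1 fit and 1488 with voom weights. Leaving out 1 mouse gave 498 to 2301, the most without C3H replicate 2. In WSB against C3H the 1 member became 2 with voom weights. It became 0 with 9 libraries in 1 fit, eBayes without a trend, the GC trend removed, no filter, either pseudocount and a replicate block. Leaving out 1 mouse gave 0 to 4. Over all genes, 1182 calls among 20607 became 1757 with voom weights, 1682 with 9 libraries in 1 fit and 897 without a trend. They became 1427 among 20585 with the GC trend removed and 920 among 29864 with no filter. Pseudocounts of 1 and 0.01 gave 1103 and 1097, and the block 531. Leaving out 1 mouse gave 475 to 2002.

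Of the related genes in WSB against B6, 2 called became 0 with eBayes without a trend and a replicate block, and 0 to 1 leaving out 1 mouse. In C3H against B6, 0 became 3 with the GC trend removed and 1 with voom weights, and 0 to 4 leaving out 1 mouse. In WSB against C3H, 1 became 3 with 9 libraries in 1 fit and 4 with the GC trend removed. It became 2 with a filter of 1 FPKM, protein-coding genes and voom weights. It became 0 with eBayes without a trend, no filter and a replicate block, and 0 to 4 leaving out 1 mouse. Over all genes, the GC-trend fit of C3H against B6 called 1156 of 20579. In WSB against C3H, the filter of 1 FPKM gave 1019 of 13011 and protein-coding genes 1088 of 15117. Calls over all genes in the other fits are given above.

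For the ratios, the adjusted exact p of summed AMPA to summed NMDA became 0.0524 with the GC trend removed. The replicate block gave 0.0556 for that ratio and for Grin1 to summed Grin2, and leaving out 1 mouse gave 0.0214 to 0.114 for both. Under the block the exact p before adjustment was 0.0278 for both ratios, the smallest that its 216 assignments allow. Missing the threshold there therefore does not show a weaker difference. Signs turned for small differences that were not called: with the GC trend removed, Gria3 (0.02) and Grin1 (-0.02) in WSB against B6, Grin2c (-0.05) and Grin2d (-0.16) in C3H against B6 and Grin2c (0.06) in WSB against C3H, and with rescaling to total reads, Gria3 (0.01) in WSB against B6 and Grin3a (0.02) in WSB against C3H. Leaving out 1 mouse spanned -0.09 to 0.18 for Gria2, -0.11 to 0.14 for Gria3 and -0.14 to 0.16 for Grin2a in WSB against B6, -0.09 to 0.21 for Grin2d in C3H against B6, and -0.15 to 0.07 for Grin2c and -0.10 to 0.12 for Grin3a in WSB against C3H. The cause was not tested. Same-numbered mice did not deviate together (correlations of -0.156 to 0.037, and 0 of 9 libraries closest to its own number), so the block tests a shared number only. With 3 mice a strain, differences that missed the threshold are not shown to be absent.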
